A study of Mus musculus with 564 samples.

Results

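The MHC class II genes and their master regulator Ciita were followed through the H3K27ac profiles of mouse bone marrow-derived macrophages. Members were all rows of the table whose centre lay within 25 kb of an mm10 RefSeq transcription start of Ciita, Cd74, H2-Aa, H2-Ab1, H2-Eb1, H2-DMa or H2-DMb1. The rule used position only and no measured value. It returned 40 of 59190 cis-regulatory elements (CREs), with 6 nearest to Ciita, 6 to Cd74, 4 to H2-Aa, 5 to H2-Ab1, 4 to H2-Eb1, 6 to H2-DMa and 9 to H2-DMb1. Each element is named by its gene and by the distance of its centre from the nearest start in kb, with a minus sign for upstream. The element that covers a start is called the promoter element.

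The cells were grown from the marrow of wild-type male C57/BL6 mice and carried no transgene. They were kept for 1 h in the vehicle DMSO or in 1 of 58 clinical kinase inhibitors (CKIs) and were then left untreated (UT) or given LPS or IL-4 at 10 ng/mL for 30 min, 1 h, 2 h or 4 h. The UT samples are labelled 0 h in their titles and 4 h in the treatment field, and they were used as the reference at time 0. No UT group was matched to each time, so in differences from UT the stimulus and time in culture cannot be told apart. DMSO had 2 libraries in each of its 9 groups, 18 in all. The CKIs had 546 libraries, and 49 of the 58 compounds had all 9 conditions, mostly with 1 library each. Nothing in the labels says that the DMSO replicates came from separate cultures, so p-values measure the spread between these libraries, which may be technical. The dose of a compound is not given in the labels, and doses differed between compounds.

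H3K27ac, acetylation of lysine 27 on histone H3, marks active promoters and enhancers. The values are the authors' read counts per element, scaled between libraries and rounded, and are called normalized read counts here. They measure the mark on chromatin and not the RNA or the protein. In a bulk library a change in the share of cells that carry the mark and a change within each cell cannot be told apart. Elements differ in width, from 1521 bp at H2-Eb1 +4.1 kb to 7283 bp at the H2-DMa promoter, so levels are compared between groups at 1 element and not between elements.

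MHC class II molecules present peptides from engulfed material to CD4+ T cells. H2-Aa and H2-Ab1 encode the chains of I-A, and H2-Eb1 encodes the beta chain of I-E. Cd74 is the invariant chain, which fills the peptide groove and guides the molecule to endosomes, and H2-DMa and H2-DMb1 form the H2-DM heterodimer that exchanges its remnant for peptide. CIITA is a coactivator without DNA binding of its own, and it acts through RFX, CREB and NF-Y on the X and Y boxes of class II promoters. In macrophages Ciita is classically induced by interferon gamma, and IL-4, acting through JAK kinases and STAT6, is a known inducer of class II in several antigen-presenting cells. LPS, a ligand of TLR4, starts the NF-kB and interferon programmes of these cells.

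Promoter sequences from RefSeq (GRCm38.p6, 250 bases before to 50 after the start) were read for H2-Aa, H2-DMa, H2-DMb1 and H2-Eb1, and for the neighbours H2-DMb2 and H2-Eb2. They were read because CIITA acts through X and Y boxes of class II promoters, and some are printed below. The search used the X core ACNGATG followed after 10 to 30 bases, on the same strand, by the Y-box letters ATTGG. That pair was present in 52 of 32851 promoter windows (0.158%), and H2-Eb1, H2-DMb1, H2-DMb2 and H2-Eb2 were among them. The H2-Aa and H2-DMa windows did not hold the pair. The bases between both motifs numbered 22 in H2-Eb1 and H2-Eb2 and 23 in H2-DMb1 and H2-DMb2. Capitals mark ACNGATG where it belongs to such a pair and GATTGG on either strand, and in H2-Aa the X2 letters TGACGTCA and GATTGG. The H2-Aa window also holds ACNGATG, on the strand opposite to the printed one. It is not part of a pair and was left in lower case. ACNGATG was present in 9.85% of all windows. TGACGTCA was present in 1.79% of the windows and GATTGG in 16.1%. The H2-Eb1 window lies at chr17:34305617-34305916 on the plus strand, H2-DMb1 at chr17:34152941-34153240 on the plus strand and H2-Aa at chr17:34287774-34288073 on the minus strand.
H2-Eb1: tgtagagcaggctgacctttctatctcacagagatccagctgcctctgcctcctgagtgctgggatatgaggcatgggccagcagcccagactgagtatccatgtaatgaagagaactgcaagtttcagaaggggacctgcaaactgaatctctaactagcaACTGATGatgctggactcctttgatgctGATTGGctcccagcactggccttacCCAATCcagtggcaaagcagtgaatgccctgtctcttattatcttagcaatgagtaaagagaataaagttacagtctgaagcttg
H2-DMb1: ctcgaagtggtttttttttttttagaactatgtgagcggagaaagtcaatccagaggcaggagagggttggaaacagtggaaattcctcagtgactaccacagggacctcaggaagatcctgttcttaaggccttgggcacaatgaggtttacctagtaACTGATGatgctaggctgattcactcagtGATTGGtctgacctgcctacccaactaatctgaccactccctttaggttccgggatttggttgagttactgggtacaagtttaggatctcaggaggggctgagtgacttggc
H2-Aa: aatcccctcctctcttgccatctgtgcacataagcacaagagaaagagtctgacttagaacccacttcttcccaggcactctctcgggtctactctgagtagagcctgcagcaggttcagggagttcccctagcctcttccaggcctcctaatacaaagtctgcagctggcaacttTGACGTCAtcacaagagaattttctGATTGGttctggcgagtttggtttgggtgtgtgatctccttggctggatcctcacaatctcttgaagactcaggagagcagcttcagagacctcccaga

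The next sequences are the central 300 bases of 3 distal elements, read from the plus strand of the same build, whose H3K27ac rose most after LPS near their gene. The Ciita +8.6 kb element lies in an intron of Ciita (chr16:10498190-10498489), and capitals mark GGGNNNTTCC, the core of NF-kB sites, read on either strand. H2-Ab1 -12.9 kb (chr17:34250207-34250506) and H2-DMa -17.8 kb (chr17:34104858-34105157) are intergenic, and capitals mark TGANTCA, the letters of AP-1 sites, in the former and GAAANNGAAA, letters of interferon-response elements, in the latter. On either strand, GGGNNNTTCC was present in the central 500 bases of 9.6% of all elements, TGANTCA in 25.3% and GAAANNGAAA in 7.94%. Among the 40 members 6, 8 and 4 held them. A match is a run of letters and not a measured binding site.
Ciita +8.6 kb: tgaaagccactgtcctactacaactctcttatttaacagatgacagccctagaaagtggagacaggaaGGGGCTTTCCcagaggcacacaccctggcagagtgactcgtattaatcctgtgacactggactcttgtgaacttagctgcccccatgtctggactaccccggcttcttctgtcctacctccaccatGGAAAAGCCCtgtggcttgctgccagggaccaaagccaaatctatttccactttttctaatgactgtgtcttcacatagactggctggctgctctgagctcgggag
H2-Ab1 -12.9 kb: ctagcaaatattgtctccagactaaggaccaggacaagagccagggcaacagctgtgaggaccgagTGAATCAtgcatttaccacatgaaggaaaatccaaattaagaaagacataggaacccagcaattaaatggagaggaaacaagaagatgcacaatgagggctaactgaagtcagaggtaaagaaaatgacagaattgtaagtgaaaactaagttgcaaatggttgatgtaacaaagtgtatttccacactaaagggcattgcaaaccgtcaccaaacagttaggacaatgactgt
H2-DMa -17.8 kb: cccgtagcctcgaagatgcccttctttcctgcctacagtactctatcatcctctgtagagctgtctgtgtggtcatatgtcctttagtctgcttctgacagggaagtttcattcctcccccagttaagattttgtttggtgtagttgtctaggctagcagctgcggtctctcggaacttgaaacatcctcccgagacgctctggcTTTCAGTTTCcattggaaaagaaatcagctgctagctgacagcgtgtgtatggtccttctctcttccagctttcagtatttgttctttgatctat

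H3K27ac changed at some elements of these loci after each stimulus. In DMSO cells 21 of the 38 members tested changed after LPS (55.3%), where 53.5% of all 50697 elements tested did so. Of these 16 rose and 5 fell, against 29% of all elements higher and 24.6% lower. After IL-4 8 of 37 members changed (21.6%) and all 8 rose, where 24.7% of 47018 elements changed, 13.6% higher and 11% lower. The overall shares of called members were thus near those of the whole table in both courses. A call needed a Benjamini-Hochberg adjusted p under 0.01 from limma's moderated F-test on the 4 differences from UT and a difference over 1 in log2(value + 5) at 1 or more times. All fold changes are on that scale, which understates the change of low elements. Both courses share the UT libraries.

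**Figure D1:**
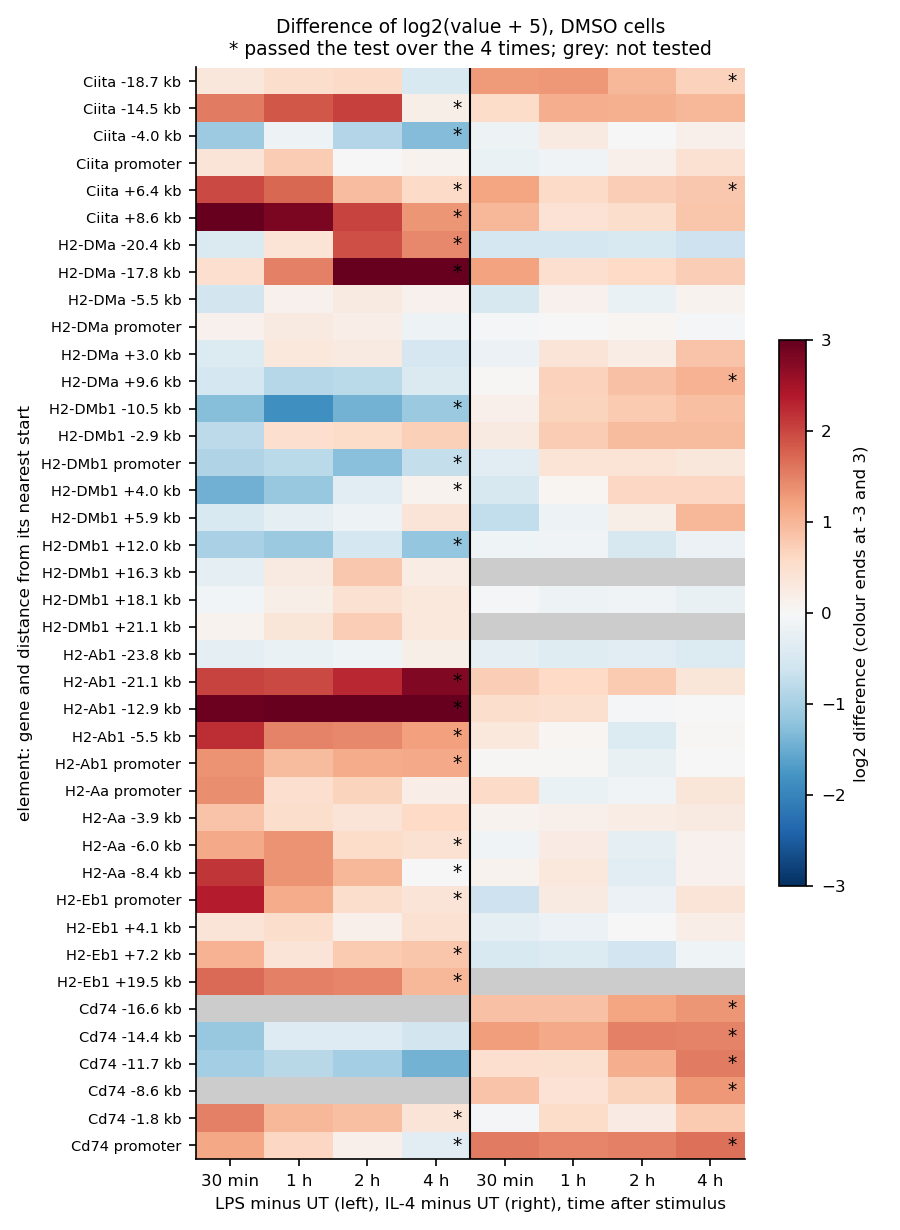
Colour gives the difference in log2(value + 5) from UT at each time after LPS (4 columns on the left) and IL-4 (4 on the right) for the 40 elements, in rows ordered by position, with an asterisk where the element was called and grey where it was not tested. The colour ends at -3 and 3. The Cd74 rows are grey, blue or pale after LPS apart from the promoter and -1.8 kb, and shades of red after IL-4, while the H2-Ab1 rows other than -23.8 kb are red after LPS, up to 4.29 at -12.9 kb, and pale after IL-4.

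The median difference of the members from UT was 0.36, 0.51, 0.54 and 0.27 at 30 min, 1 h, 2 h and 4 h of LPS. The medians of all elements tested were 0.05, 0.09, 0.02 and 0.08. After IL-4 the members' medians were 0.04, 0.31, 0.23 and 0.39, beside 0.09, 0.03, -0.03 and 0.05 for all elements. These medians depended on the scaling. After quantile normalization the members' medians were 0.14, 0.28, 0.36 and 0.07 for LPS, beside -0.04, -0.03, -0.07 and -0.07 for all elements, and -0.14, 0.21, 0.22 and 0.28 for IL-4, beside -0.09, -0.05, -0.03 and -0.02. The members' median at 30 min of IL-4 thus changed sign.

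Ciita, the regulator, was called at flanking elements, while the element over its downstream starts stayed under the size threshold. No element covers its upstream start. The promoter element (chr16:10487274-10490065), which covers the downstream starts of the gene, held 87 and 72 normalized read counts in UT replicates 1 and 2. LPS gave 99 and 111 at 30 min, 156 and 123 at 1 h, 65 and 97 at 2 h and 98 and 74 at 4 h, and IL-4 gave 70 and 66, 91 and 58, 96 and 81, and 106 and 116 at the same times. Both LPS libraries at 30 min and 1 h, and both IL-4 libraries at 4 h, lay above UT. The largest differences were 0.77 (SE 0.22) at 1 h of LPS and 0.46 (SE 0.21) at 4 h of IL-4, both below the threshold of 1, with limma adjusted p of 0.00816 and 0.0363.

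The intronic Ciita +8.6 kb element (chr16:10497479-10499202), shown above with its GGGNNNTTCC letters, held 21 and 16 in UT. LPS raised it to 178 and 201 at 30 min, 148 and 176 at 1 h, 81 and 101 at 2 h and 57 and 51 at 4 h. Every LPS library was above UT, and the highest were those at 30 min, with a difference of 3.05 (SE 0.22, limma adjusted p = 3.98e-14). IL-4 gave 16 to 42 over its 8 libraries, which overlapped UT, and the element was not called (largest difference 0.99, limma adjusted p = 0.0443).

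The neighbouring intronic Ciita +6.4 kb element rose in both courses. It held 59 and 40 in UT, 190 and 222 at 30 min of LPS and 108 and 127 at 30 min of IL-4. The differences were 1.97 (SE 0.21) and 1.19 (SE 0.21), with limma adjusted p of 3.92e-10 and 0.000125, and the IL-4 call was lost without UT replicate 2 (0.93, adjusted p = 0.0149). Upstream, Ciita -14.5 kb rose by 2.06 at 2 h of LPS (SE 0.30) and had returned to 0.17 at 4 h.

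Ciita -4.0 kb was the member near this gene that fell after LPS. It held 163 and 128 in UT, 69 and 61 at 30 min, 129 and 130 at 1 h, 65 and 89 at 2 h and 65 and 48 at 4 h. The libraries at 1 h overlapped UT and those at the other times were all lower, with a difference of -1.30 at 4 h (SE 0.22, limma adjusted p = 2.58e-06). Ciita -18.7 kb rose after IL-4, from 19 and 16 in UT to 45 and 54 at 30 min, 42 and 59 at 1 h, 39 and 40 at 2 h and 32 and 30 at 4 h. All 8 IL-4 libraries were above UT and the difference reached 1.29 (SE 0.28, limma adjusted p = 0.000299), a call lost without UT replicate 2 (adjusted p = 0.0132).

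Cd74, the invariant chain, carried most of the IL-4 calls. Of its 6 elements 5 were called, all higher, where 13.6% of all elements were called higher. Its promoter element (chr18:60802886-60809764) covers the start and extends into the gene, and it held 371 and 378 in UT. IL-4 gave 1169 and 1040 at 30 min, 1043 and 1037 at 1 h, 1074 and 1061 at 2 h and 1247 and 1150 at 4 h. The rise was thus present at 30 min and was held, between 1.46 and 1.66 at the 4 times (SE 0.08, limma adjusted p = 6.43e-24).

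LPS also raised the Cd74 promoter, but for a shorter time. The values were 805 and 869 at 30 min, 599 and 568 at 1 h, 449 and 393 at 2 h and 313 and 282 at 4 h. Both libraries were above UT up to 2 h and below it at 4 h, with differences of 1.15 at 30 min and -0.33 at 4 h (SE 0.12, limma adjusted p = 3.34e-10 and 0.0168 for these times).

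The 4 intergenic elements farther upstream of Cd74 moved with IL-4 as well. Cd74 -14.4 kb held 37 and 38 in UT and 99 and 94, 87 and 90, 128 and 107, and 126 and 102 at the 4 times of IL-4. Cd74 -11.7 kb held 33 and 25 in UT and 56 and 33, 30 and 58, 57 and 77, and 96 and 95. The former was above UT in every library and the latter separated from UT in both libraries only at 2 h and 4 h.

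The differences were 1.52 at Cd74 -14.4 kb (SE 0.19, limma adjusted p = 6.41e-09) and 1.57 at Cd74 -11.7 kb (SE 0.27, limma adjusted p = 1.74e-05). Cd74 -16.6 kb held 16 and 13 in UT and rose to 31 and 31, 28 and 34, 39 and 40, and 35 and 54 (1.32, limma adjusted p = 0.00116). Cd74 -8.6 kb rose from 13 and 12 to 30 and 47 at 4 h (1.29, limma adjusted p = 0.00895). The calls at -16.6 and -8.6 kb were each lost when single UT libraries were left out, and that at -8.6 kb also without any of 5 single IL-4 libraries. Of 51-base words in the -14.4 kb element, 28.6% occur elsewhere in the genome, so reads there may be placed with less certainty.

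After LPS the values of these 4 upstream elements were mostly at or below UT. Cd74 -14.4 kb gave 13 and 16 at 30 min and 22 and 26 at 4 h, and Cd74 -11.7 kb gave 8 and 16 at 30 min and 3 and 15 at 4 h. Neither was called (-1.13 and -1.42 at the largest, limma adjusted p = 0.0264 and 0.0405). Cd74 -1.8 kb, which lies beside the promoter element, rose instead, from 13 and 10 to 41 and 42 at 30 min of LPS (1.50, limma adjusted p = 0.00266), a call lost when either library at 30 min or UT replicate 2 was left out.

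**Figure D2:**
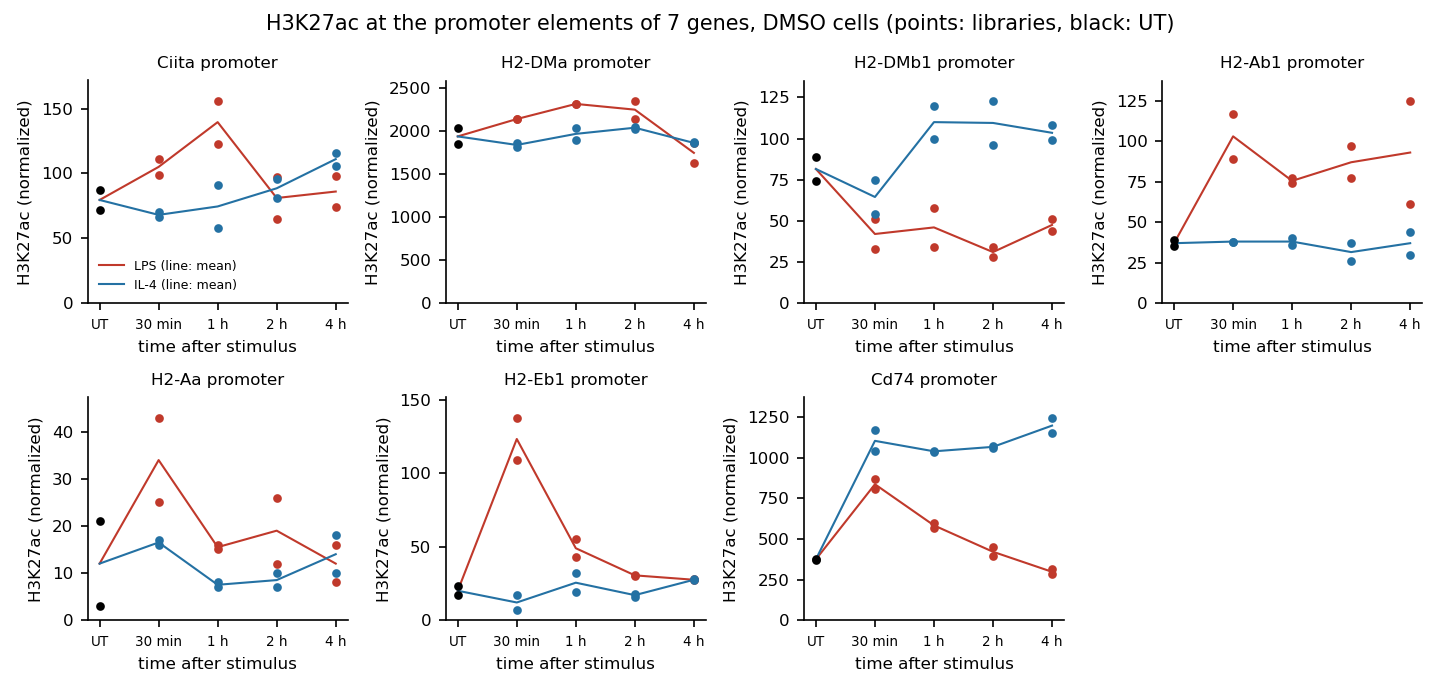
Normalized read counts (vertical axis, from 0) of the promoter element of each of the 7 genes against time, with points for the 2 libraries of a group, lines for their mean, red for LPS, blue for IL-4 and black for UT. The Cd74 panel shows IL-4 libraries between 1037 and 1247 at all 4 times while LPS runs from 805 and 869 down to 313 and 282, and the H2-Eb1 panel peaks at 109 and 138 at 30 min of LPS.

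Elements assigned to the classical class II chains H2-Aa, H2-Ab1 and H2-Eb1 answered LPS and gave no call by limma after IL-4. Each was assigned to the nearest member gene, which need not be the nearest gene. Of all elements 24.7% were called in the IL-4 course. Of the 12 tested in these genes 2 had an unadjusted p under 0.05 after IL-4, beside 62.5% of all elements. Of the 13 elements of these genes 9 rose after LPS, where 29% of all elements did. None fell, where 24.6% of all elements did. Among those that rose, H2-Ab1 -21.1 kb and -12.9 kb lie nearer to the start of H2-Ob than to that of H2-Ab1. H2-Eb1 +19.5 kb, which also rose, covers the start of H2-Eb2. The elements of these genes had IL-4 differences between -0.61 and 0.79 at their largest. At the H2-Ab1 promoter (chr17:34260857-34263994) the values were 39 and 35 in UT, 89 and 117 at 30 min of LPS, 77 and 74 at 1 h, 97 and 77 at 2 h and 125 and 61 at 4 h. All 8 LPS libraries were above UT (1.35 at 30 min, SE 0.26, limma adjusted p = 0.000132). The 8 IL-4 libraries gave 26 to 44 and overlapped UT (limma adjusted p = 0.899).

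The H2-Eb1 promoter (chr17:34304151-34306574), which carries the X and Y letters shown above, rose early. It held 23 and 17 in UT, 109 and 138 at 30 min of LPS, 55 and 43 at 1 h, 30 and 31 at 2 h and 27 and 28 at 4 h. All LPS libraries exceeded UT, but the difference of 2.36 at 30 min (SE 0.28, limma adjusted p = 1.72e-08 over the course) had shrunk to 0.39 at 4 h (adjusted p for that time 0.237). IL-4 gave 7 to 32, on both sides of UT.

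The H2-Aa promoter (chr17:34287110-34288695) was low, and its UT libraries disagreed, with 21 and 3. LPS gave 25 and 43 at 30 min, 15 and 16 at 1 h, 12 and 26 at 2 h and 16 and 8 at 4 h, and IL-4 gave 7 to 18. Both libraries lay above both UT libraries at 30 min of LPS and at no other time, and the element was not called (1.40, SE 0.44, limma adjusted p = 0.0402), though it was without UT replicate 1 (2.25, adjusted p = 0.00236). H2-Aa -8.4 kb gave a clearer rise, from 32 and 32 to 135 and 186 at 30 min (2.14, SE 0.26, limma adjusted p = 3.01e-09), and stood at 44 and 23 by 4 h.

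The largest response of all 40 elements was at H2-Ab1 -12.9 kb (chr17:34248129-34252586), whose central bases are printed above. This intergenic element is 4458 bp wide and lies between H2-Ob, which encodes a chain of the H2-DM inhibitor H2-O, and H2-Ab1. It held 31 and 18 in UT, 188 and 247 at 30 min of LPS, 419 and 311 at 1 h, 585 and 525 at 2 h and 632 and 489 at 4 h. The differences grew from 2.94 at 30 min to 4.29 at 4 h (SE 0.18, limma adjusted p = 1.15e-20).

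No LPS library of that element overlapped UT, and the 8 IL-4 libraries stayed at 17 to 51 (limma adjusted p = 0.271). H2-Ab1 -21.1 kb, in an intron of H2-Ob, held 7 and 15 in UT and 53 and 63, 65 and 49, 65 and 75, and 122 and 84 at the 4 times of LPS. Its difference reached 2.78 at 4 h (SE 0.28, limma adjusted p = 7.86e-10). H2-Ab1 -23.8 kb, over the start of H2-Ob itself, gave 246 and 247 in UT and 182 to 289 after LPS and was not called (limma adjusted p = 0.0742).

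The genes of the H2-DM heterodimer differed from each other. The H2-DMa promoter element (chr17:34118396-34125678) also covers starts of Brd2, a reader of acetylated histones, and the signals of both genes cannot be separated there. It held 1841 and 2027 in UT, 1631 to 2348 after LPS and 1812 to 2046 after IL-4, and its largest difference was 0.26 (SE 0.08, limma adjusted p = 4.63e-05), far below the threshold of 1.

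Around H2-DMa, elements on either side of the promoter changed. Upstream, H2-DMa -17.8 kb held 8 and 2 in UT and 8 and 9, 21 and 23, 112 and 104, and 100 and 69 at the 4 times of LPS. Its neighbour at -20.4 kb held 224 and 239 in UT and 170 and 171, 333 and 286, 916 and 887, and 619 and 667. Both rose late, at 2 h, by 3.57 (SE 0.33, limma adjusted p = 1.91e-12) and 1.94 (SE 0.13, limma adjusted p = 3.05e-18), and the start nearest to both is that of H2-Oa, the partner of H2-Ob. In the -17.8 kb element 21.7% of the 51-base words occur elsewhere in the genome.

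Inside the gene H2-DMa +9.6 kb rose after IL-4, from 81 and 79 in UT to 85 and 80 at 30 min, 123 and 140 at 1 h, 135 and 169 at 2 h and 180 and 161 at 4 h. The difference at 4 h was 1.04 (SE 0.17, limma adjusted p = 1.59e-07), and it was 0.97, below the threshold, without IL-4 4 h replicate 1. LPS gave 38 to 78 there, all below UT, without a call (-0.86 at 1 h, limma adjusted p = 0.0263).

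H2-DMb1 had 4 of its 9 elements called after LPS, all lower, where 24.6% of all elements fell. H2-DMb1 -10.5 kb covers the start of H2-DMb2, the neighbouring beta-chain gene, and held 349 and 349 in UT. LPS gave 122 and 165 at 30 min, 86 and 104 at 1 h, 112 and 144 at 2 h and 163 and 155 at 4 h, and IL-4 gave 382 and 393, 555 and 564, 559 and 658, and 669 and 643. The LPS libraries were all below UT and the IL-4 libraries all above it.

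The fall after LPS was -1.83 at 1 h (SE 0.18, limma adjusted p = 9.24e-10). The difference after IL-4 reached 0.90 at 4 h (SE 0.10, limma adjusted p = 3.50e-12), which is below the threshold of 1 and not a call. The H2-DMb1 promoter (chr17:34152287-34153966) went from 89 and 74 in UT to 33 and 51, 34 and 58, 28 and 34, and 51 and 44 at the 4 times of LPS (-1.26 at 2 h, SE 0.28, limma adjusted p = 0.003). Every LPS library was below UT, but the call was lost without either UT library (adjusted p = 0.0738 without replicate 1 and 0.0183 without replicate 2) and without LPS 2 h replicate 1 (0.0145). IL-4 gave 54 to 123 there, with 0.41 at the largest. In 4 of the H2-DMb1 elements 17.7% to 35.5% of the 51-base words occur elsewhere in the genome, so their counts are uncertain. Whether these words recur in the neighbouring gene H2-DMb2 was not tested.

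**Figure D3:**
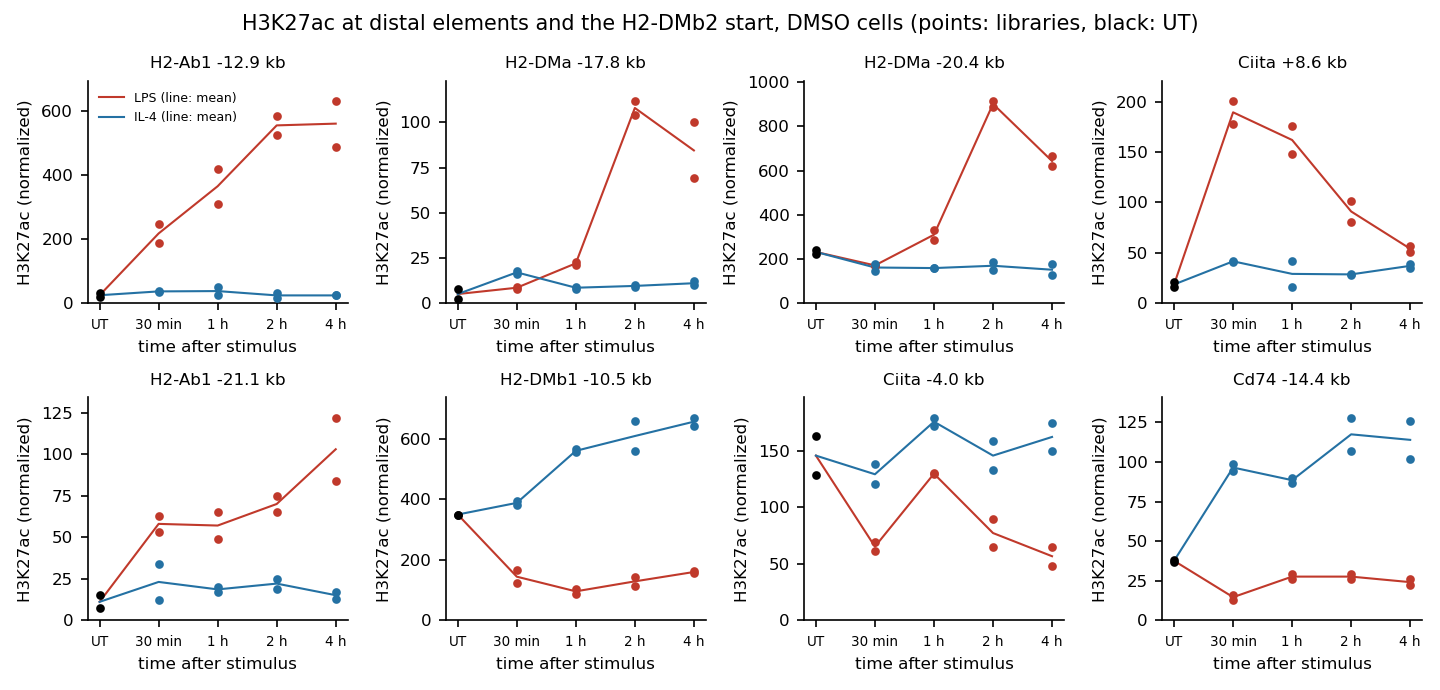
Normalized read counts (vertical axis, from 0) against time at 8 elements, drawn as in the plot of the promoter elements. H2-DMb1 -10.5 kb covers the start of H2-DMb2, and the others are distal. H2-Ab1 -12.9 kb climbs to 632 and 489 with LPS and stays at 17 to 51 with IL-4, and H2-DMb1 -10.5 kb splits from 349 in UT to 86 and 104 at 1 h of LPS and 669 and 643 at 4 h of IL-4.

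Tested against each other at equal times, LPS and IL-4 differed at 27 of 39 members (69.2%), where 58.4% of 50587 elements did. LPS was higher at 15 and IL-4 at 12, against 29.2% of all elements in each direction. By nearest member gene, IL-4 was higher at 5 of the 6 Cd74 elements, and LPS at 4 of 5 for H2-Ab1, 3 of 4 for H2-Eb1 and 2 of 4 for H2-Aa. LPS minus IL-4 was -1.99 at the Cd74 promoter at 4 h (SE 0.10, limma adjusted p = 8.04e-24 over the course), -2.50 at H2-DMb1 -10.5 kb at 1 h (SE 0.14, 5.24e-25), 4.31 at H2-Ab1 -12.9 kb at 2 h (SE 0.25, 4.94e-25) and 2.97 at the H2-Eb1 promoter at 30 min (SE 0.32, 4.47e-10). The Cd74 promoter was thus higher with IL-4 at each of the 4 times, including 30 min, when both stimuli had raised it (-0.40, SE 0.10).

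Over the 9 DMSO group means, the promoter elements of the classical chains had Pearson correlations of 0.69 to 0.74 with each other. The H2-DMb1 promoter had -0.91 with H2-Ab1, and the Cd74 promoter 0.57 with H2-DMb1 and -0.54 with H2-Ab1. These are descriptions over 9 points that share libraries and UT. Of 10165 promoter elements of other genes, those most like the mean standardized profile of the 7 were Sbno1 (r = 0.966), Tardbp (0.961), Atg16l2 (0.96), Ube2j1 (0.956) and Rab5b (0.956). The members themselves ranged from 0.87 for H2-Eb1 to -0.35 for H2-DMb1.

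Other genes of antigen presentation were taken by their promoter elements. In the class I pathway all 8 genes tested were called higher after LPS, where 29% of all elements were, among them Tapbp, the peptide-editing tapasin (1.91), the immunoproteasome subunit Psmb8 (1.62) and B2m, the light chain of class I (1.37). Tap1 and Psmb9 share 1 element, and whether reads of the related genes H2-K1 and H2-D1 are split between them was not tested. After IL-4 none of the 8 was called, though 7 had an unadjusted p under 0.05, where 62.5% of all elements had one, with limma adjusted p between 2.07e-07 and 0.239 and differences of at most 0.66.

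Among genes of endosomal processing 6 of 9 were called after LPS, where 53.5% of all elements were. Of the 9, 5 fell, where 24.6% of all elements did, namely Marchf1, the ubiquitin ligase that removes class II from the surface (-2.53 at 30 min), the proteases Ctsd (-1.98), Lgmn (-1.25) and Ctsl (-1.09), and the thiol reductase Ifi30 (-1.01). Sppl2a, the protease that clears the Cd74 remnant, rose by 1.94. Ctss, the protease that degrades the invariant chain, gave -0.83 and was not called. None was called after IL-4, where 6 of 9 had an unadjusted p under 0.05, near the share of all elements (62.5%), and the largest difference was -0.62 at Ctsd (limma adjusted p = 3.95e-06).

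Of the transactivators that bind X and Y boxes, 1 of 7 was called after LPS, Nfyb of the NF-Y complex, which rose by 1.52. Rfx5 stood at 0.98 (limma adjusted p = 2.40e-06), just under the threshold. Among 7 known regulators of Ciita 5 were called after LPS, beside 53.5% of all elements, among which Irf1 (1.72) and the repressor Prdm1 (1.17) rose and Usf1 (-1.75) and Stat6 (-1.27) fell. No transactivator or Ciita regulator was called after IL-4, although 4 of 7 and 7 of 7 had an unadjusted p under 0.05, beside 62.5% of all elements, and Prdm1 had 0.70 (limma adjusted p = 3.23e-08). Of the other class II genes 4 of 5 had a promoter element, and those of H2-Eb2, H2-DMb2 and H2-Ob are the members H2-Eb1 +19.5 kb, H2-DMb1 -10.5 kb and H2-Ab1 -23.8 kb, already counted above. After LPS H2-Eb2, a beta-chain gene beside H2-Eb1, rose by 1.71 from 5 and 6 in UT, a call that was lost without UT replicate 1 (limma adjusted p = 0.0141). H2-DMb2 fell, while H2-Oa (0.86, limma adjusted p = 0.0028) and H2-Ob (-0.26, 0.0742) were not called. After IL-4 none of the 3 tested was called by limma, and 2 had an unadjusted p under 0.05.

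Marker promoters were set beside the label of the cells. The elements are centred on sites accessible in these macrophages, so a marker without an element cannot show that other cells were absent. All 7 macrophage markers had an element, with a summed value of 7589 and 7640 in UT, 4893 to 7086 after LPS, where 5 of 7 fell, and 6812 to 7850 after IL-4, where Itgam fell. Of 6 dendritic cell markers Flt3 had an element, at 6 to 8 in UT and 5 to 19 after LPS. It rose after IL-4, the stimulus with the Cd74 response, to 17 to 31 (1.50, limma adjusted p = 0.00153). Of 5 B cell markers Ebf1 had one, at 0 to 7 throughout, and none of 4 T cell markers had one. Camp was the only one of 4 neutrophil markers with an element, at 4 and 5 in UT and 120 to 171 at 4 h of LPS. The part of these markers in the class II values was not tested.

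The CKI libraries gave a further set of libraries for the 4 h responses, taken from the same jointly scaled table. They differed from the DMSO libraries in contrast, the ratio of the median value in the highest 10% of elements to that in the lowest 10%. It was 53 to 134 in DMSO (median 75.1) and 3.34 to 67.2 in the CKI libraries (median 17.6). Spacing of the values put the reads at 2.34 to 5.41 M in the 16 DMSO libraries where it could be read and at 0.172 to 12.5 M in 534 CKI libraries. With compound and condition as terms, LPS 4 h minus UT was called at 5 of 40 members (12.5%) and IL-4 4 h at 4 of 40 (10%). The shares over all 59167 elements were 18.6% (10.2% higher, 8.37% lower) for LPS and 5.53% (3.3% higher, 2.22% lower) for IL-4.

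All 4 IL-4 calls were at Cd74. The promoter rose by 1.11 (SE 0.038), -14.4 kb by 1.35 (SE 0.075), -16.6 kb by 1.06 (SE 0.101) and -11.7 kb by 1.05 (SE 0.093), with limma adjusted p from 3.81e-108 to 3.30e-22. Cd74 promoter values were 353 to 691 (median 516) in 73 UT libraries and 782 to 1467 (median 1159) in 55 libraries at 4 h of IL-4, and the groups did not overlap. The share of all elements that separated in this way was not counted. After quantile normalization -16.6 kb (0.86) and -11.7 kb (0.88) were below the threshold. The promoter's difference was 0.97 to 1.32 in each of 6 column blocks, runs of 8 to 10 compounds that stand side by side in the table.

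After LPS the 5 calls were H2-Ab1 -12.9 kb (2.38, SE 0.082), H2-DMa -17.8 kb (1.86, SE 0.123), H2-Ab1 -21.1 kb (1.50, SE 0.099), H2-DMa -20.4 kb (1.12, SE 0.059) and Ciita -4.0 kb, which fell by 1.00 (SE 0.073). The last sat on the threshold of 1, with -1.30 to -0.81 in the 6 column blocks taken alone, and was not called after quantile normalization or without the 36 further libraries with the suffix b in their names (-0.95), where 4 members were called. H2-Ab1 -12.9 kb went from 39 to 205 (median 80) in 73 UT libraries to 227 to 724 (median 464) in 57 libraries at 4 h, again without overlap. How many of all elements separated so after LPS was not counted either. The Cd74 promoter gave -0.41 (SE 0.038) and H2-DMb1 -10.5 kb -0.90 (SE 0.051) at 4 h of LPS, both below the threshold in size.

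The sign of the response was the same in nearly every compound at a number of elements. The share of all elements with such agreement was not counted, so it is not read as particular to the members. For each stimulus 55 compounds had a UT library and a 4 h library, and the sets of compounds were not the same. The IL-4 difference at the Cd74 promoter was positive in 55, from 0.54 with Silmitasertib to 1.53 with Encorafenib (median 1.12). The LPS difference at H2-Ab1 -12.9 kb was positive in 55, from 0.24 with PF04691502 to 3.76 with Lenvatinib (median 2.57). Ciita -4.0 kb and H2-DMb1 -10.5 kb were negative after LPS in 55 of 55, and the latter was positive after IL-4 in 54. The difference was also positive in 53 or more of 55 at Cd74 -14.4 kb, -11.7 kb and -16.6 kb and H2-DMa +9.6 kb after IL-4, and at H2-DMa -20.4 kb and -17.8 kb after LPS.

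**Figure D4:**
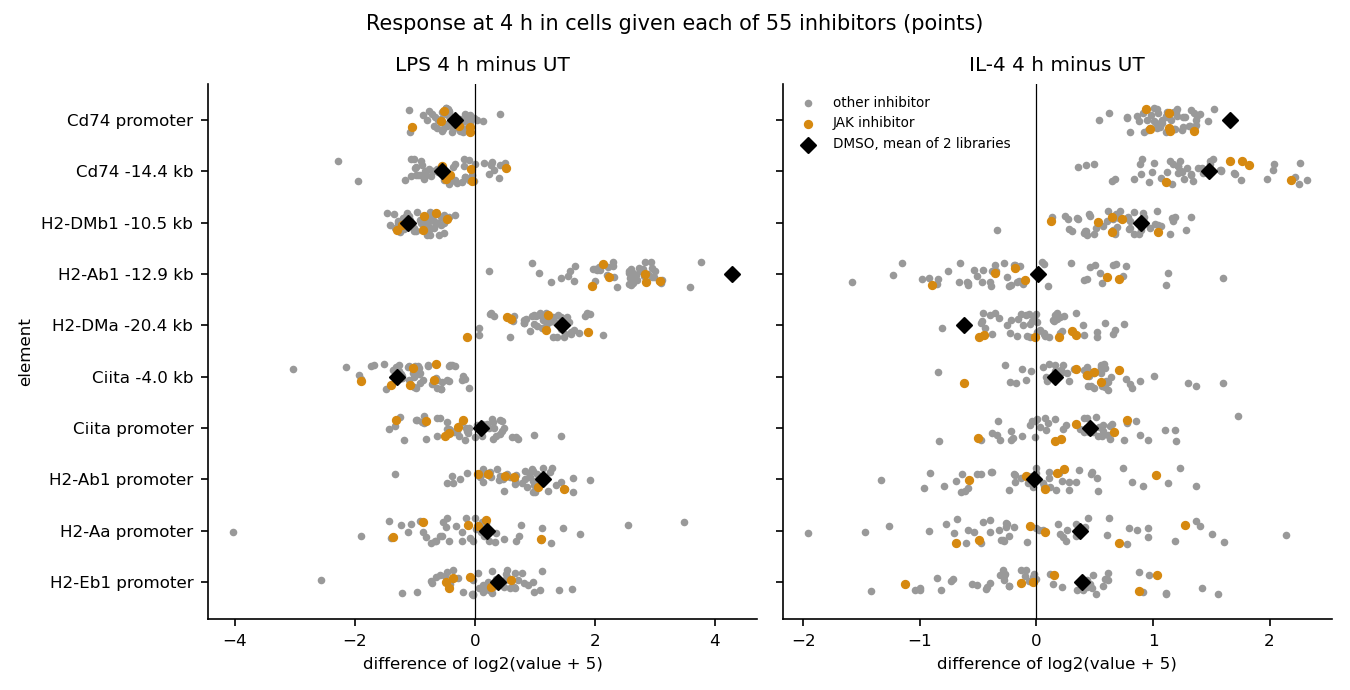
Each point is the difference in log2(value + 5) between 4 h and UT (horizontal axis) in 1 of 55 compounds for each stimulus, for 10 elements in rows, with LPS on the left, IL-4 on the right and the 6 JAK inhibitors in orange. All points of the Cd74 promoter lie right of 0 after IL-4, between 0.54 and 1.53 with the JAK inhibitors at 0.94 to 1.36, and those of H2-Ab1 -12.9 kb lie right of 0 after LPS.

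The compounds were set against DMSO and, because of the contrast, against each other. Against DMSO 1096 of 2320 element and compound pairs were called after LPS (47.2%) and 1220 after IL-4 (52.6%), at a limma adjusted p under 0.05 and a difference over 0.5. Over all elements 36.4% and 39.2% of pairs were called, and 4.04% and 3.03% were called lower. Of the called member pairs 3.65% and 1.56% were lower, where 11.1% and 7.73% were over all elements. Median differences of the members were 0.62 and 0.64 beside 0.39 and 0.41 over all elements. Treatment with a compound and the lower contrast of its libraries cannot be told apart in this comparison, and after quantile normalization 142 and 180 pairs were called, with 16.9% and 17.8% of them lower.

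Against the other compounds of its column block, 21 of 2320 pairs were called after each stimulus, 0.905% of them, where 1.15% of all pairs were called after LPS and 1.25% after IL-4. No source used here says what the column blocks represent. PH797804, a p38 inhibitor, gave 13 of the 21 calls after LPS and 8 after IL-4. It also had 42.6% and 40.7% of all elements called, a median contrast of 10.3 against 35.5 in the rest of its block, and a library of 0.172 M reads. Without it 14 and 13 pairs were called.

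BGT226, a PI3K and mTOR inhibitor, had 7 member calls after IL-4, 6 of them lower, and 10.8% of all elements called. Its differences from the block were -0.62 at the Ciita promoter (SE 0.17, limma adjusted p = 0.00297), -0.66 at the H2-DMb1 promoter (SE 0.17, 0.00176) and -0.63 at Cd74 -11.7 kb (SE 0.20, 0.0178). Omipalisib, of the same class, was lower at Cd74 -11.7 kb as well (-0.92, SE 0.20, limma adjusted p = 0.000476). At the Cd74 promoter itself PH797804 was called (-0.66 after IL-4), and the next lowest, Lenvatinib, had -0.28 (SE 0.09, limma adjusted p = 0.0495), under the size threshold.

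The JAK inhibitors are of interest because the IL-4 receptor signals through JAK kinases. After 4 h of IL-4 the Cd74 promoter differed from UT by 0.94 with BMS911543, 0.98 with Filgotinib, 1.15 with Momelotinib, 1.36 with Pacritinib, 1.14 with Ruxolitinib and 1.14 with Tofacitinib. These lay within the range of the other compounds. Over the 4 IL-4 times the JAK inhibitors differed from the other CKIs by 0.08 at that element (95% interval -0.03 to 0.19), and over the LPS times by -0.01 (-0.17 to 0.14).

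By limma 0 of 40 members were called for the JAK inhibitors after LPS and 0 after IL-4, where the share of all elements called was 0% after both. At an unadjusted p under 0.05 there were 4 members after LPS and 1 after IL-4, beside 3.58% and 4.75% of all elements. The 4 included the Ciita promoter (-0.25, 95% interval -0.46 to -0.03, adjusted p = 1). Doses differed between compounds, so these are values side by side at the doses the study chose.

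Of the other 7 families with 3 or more compounds, the 5 PI3K and mTOR inhibitors gave a call. After IL-4 Cd74 -8.6 kb was lower by -0.46 (SE 0.12, 95% interval -0.70 to -0.22, limma adjusted p = 0.0347), where 1.34% of all elements were called. Cd74 -11.7 kb had -0.36 (SE 0.10, adjusted p = 0.0558) and the Cd74 promoter -0.02 (95% interval -0.14 to 0.10). The call was lost after quantile normalization and without the column-block term, and 2 members were called without PH797804. After LPS no member was called for this family, with 5 of 40 at an unadjusted p under 0.05 beside 18% of all elements, while 1.24% of all elements were called. Of the 6 remaining families none had a member called by limma, with 0 to 8 of 40 members at an unadjusted p under 0.05 for each stimulus. The 8 were for the p38 inhibitors after LPS, where 19.4% of all elements were under 0.05, and the 7 for the MEK inhibitors stood beside 17.2%.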

How the data were processed

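H3K27ac ChIP-seq libraries of mouse macrophages were analysed from 1 deposited table of 59190 elements in 564 columns, each matched to a sample by its name. The authors aligned 51-base reads to mm10 (Bowtie and SAMtools per the labels, versions not given), counted reads in windows around merged ATAC-seq summits, scaled libraries on invariant peaks and rounded the result. Such a deposited value is treated as a score in normalized read counts, and no count model was used. The design named the study's thresholds, but its own impulse model needs counts.

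Member elements were found by distance to RefSeq starts of GRCm38.p6, and 51-base words found more than once in that genome were counted as repeated. Differences were fitted with limma 3.58.1 in R 4.3.3 (lmFit, eBayes with trend) on log2(value + 5), for elements with a mean of at least 10, with Benjamini-Hochberg adjustment over all elements. Compounds served as replicates for families, after subtraction of the mean of all inhibitors at each time, with column block as a term. Named with full values were the promoter element of each gene and, for each stimulus, the 5 called members with the largest difference, for the inhibitors the extremes at promoters, and the 5 most similar promoters. H2-DMb1 -10.5 kb, Ciita -4.0 kb, Ciita +6.4 kb, Ciita -14.5 kb, H2-DMa -20.4 kb, H2-DMa +9.6 kb, H2-Ab1 -23.8 kb, H2-Aa -8.4 kb, Cd74 -1.8 kb and Cd74 -8.6 kb were added after their values were seen, as were the single compounds' calls at elements other than promoters. Members and gene lists were chosen with earlier results of these data known. Depth was estimated from the value of 1 read in a library, the spacing of its values, which both DMSO UT libraries did not show. The fits were tested on simulated data. Motifs were searched on both strands. Libraries with the suffix b were kept. A gene of the list of Ciita regulators is not reported here.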

Additional observations from a re-analysis of the deposited data

Results flagged for a closer look

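Within families of inhibitors, each compound's mean difference from all inhibitors over the 4 times was compared at the 7 promoter elements, and 2 of 84 groups had a compound far from the rest, where chance gives about 1 in 20. Neratinib stood at 0.26 at the H2-DMb1 promoter after IL-4, while the other ERBB inhibitors lay between -0.19 and -0.06. Apatinib stood at -0.82 at the H2-Eb1 promoter after IL-4, while the other VEGFR inhibitors lay between -0.02 and 0.38.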

How the results depend on the processing

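Counts of called members moved with the window, the pseudocount and, for IL-4, the size threshold. For LPS in DMSO cells 21 members became 13 within 10 kb, 37 within 50 kb and 14 with a pseudocount of 20, and 17 to 22 when 1 library was left out. For IL-4 the 8 became 3 with a pseudocount of 20, 13 with a threshold of 0.5, 4 within 10 kb, and 4 to 10 when 1 library was left out, with 4 without UT replicate 2. LPS against IL-4 gave 16 and 43 in place of 27 in the narrower and wider window, 21 with a pseudocount of 20, and 25 to 28 when 1 library was left out. Calls kept whichever library was left out numbered 15 of 21, 3 of 8 and 22 of 27. Over the inhibitors at 4 h, a threshold of 0.5 gave 13 members in place of 5 for LPS and 14 for IL-4, and LPS gave 4 after quantile normalization and without the suffix b libraries. The IL-4 count of 4 became 2 after quantile normalization, 2 in the first column block alone and 1 in the sixth.

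Pairs called against DMSO, 1096 for LPS and 1220 for IL-4, became 142 and 180 after quantile normalization and 21 and 21 against the compound's own column block. The latter were 14 and 13 without PH797804, an alternative chosen after seeing the data. Leaving out a DMSO replicate or PH797804 gave 771 to 1121 and 995 to 1193. The JAK inhibitors gave 0 calls under each alternative run. The other families' single call became 0 after quantile normalization, 0 without the column-block term and 2 without PH797804. In the time courses and the 4 h fits over the inhibitors, no called element changed direction under an alternative. Elements without a call were not checked for this, and some changed sign. The H2-Aa promoter after LPS over the inhibitors, for example, had -0.10 in the main fit and 0.46 in the second column block alone. Quantile normalization turned the members' median at 30 min of IL-4 from 0.04 to -0.14. Among single elements 94 values lost their call and 10 gained one, out of alternatives where 1658 kept their side. The causes were not tested.

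With the replicate number as a block the counts were 20, 8 and 27, and no other call changed than H2-Eb1 +7.2 kb after LPS. Deviations of same-numbered libraries correlated between -0.087 and 0.066 over 36 pairs of groups, so the number was taken as a name and not as a pairing. Values near 10 in low elements, such as the H2-Aa promoter, rest on few reads.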
